A study of Mus musculus with 16 samples.

Results

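Notch receptors signal by being cut. A ligand on a neighbouring cell opens the receptor to an ADAM protease, which sheds its outer part, and γ-secretase then cuts it within the membrane and frees the intracellular domain. That domain enters the nucleus and binds the DNA-binding protein RBPJ and a Mastermind co-activator to switch on genes such as Hes5 and Heyl. In the organ of Corti this lateral inhibition keeps supporting cells from becoming hair cells, and DAPT blocks it by inhibiting γ-secretase. The genes followed here were 8 of this machinery, of 36536 genes counted: the γ-secretase subunits Psen2, Ncstn, Psenen and Aph1a, the ectodomain proteases Adam10 and Adam17, and the nuclear partners Rbpj and Maml1. They were chosen by function and matched by symbol to the Ensembl identifiers of the count files, not by their values. The comparisons ask whether the target of the drug or the nuclear complex was lower at postnatal day 5 (P5) than at birth (P0), and whether either reacted to the drug.

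The data were 16 RNA-seq libraries in 8 groups of 2. All cochleas came from mice carrying an Lfng-EGFP BAC transgene, in which regulatory sequence of Lfng, itself a modifier of Notch, drives GFP in most supporting cells but not in inner pillar cells. P0 or P5 cochleas were cultured for 24 hours with 10 µM DAPT or with 0.04% DMSO, the vehicle, and sorted into GFP+ and GFP- cells, so that each age, agent and fraction had its own group. All groups shared a medium with EGF and FGF2. The study sorted the brightest GFP+ cells and left dim ones uncollected, a gate set on uncultured cochlea and kept for its later experiments. By the study's methods the lateral wall was taken off P0 explants and only in part off P5 explants. The labels do not say whether the 2 replicates of a group came from separate cultures or animals, so p-values here measure the spread between libraries, which may be technical.

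The reads assigned to genes numbered 13755356 to 23637236 in the GFP+ libraries and 34869184 to 45465324 in the GFP- libraries. The summed level of 6 supporting cell markers was 2155 to 5331 CPM (reads of a gene relative to all reads assigned to genes, scaled by TMM) in GFP+ and 97.0 to 214 CPM in GFP- libraries, and that of 6 mesenchymal markers was 58.6 to 1264 and 7829 to 13280 CPM. In GFP+ libraries 50.05% to 62.02% of the alignment records matched no counted feature, against 6.641% to 13.73% in GFP-. Whether these records lay within introns or outside genes was not tested. Mitochondrially encoded genes took 23% to 34.2% of the reads assigned to genes in GFP+ and 3.01% to 5.37% in GFP- libraries. CPM include these reads in the total. The P0 DMSO GFP+ pair stood apart from the other GFP+ libraries in 7.63% to 8.56% of records with several alignments (3.95% to 4.45% in the others). The serial numbers in the library names formed 3 runs: all GFP- libraries, the P0 DMSO GFP+ pair, and the remaining GFP+ libraries. Comparisons that set the P0 DMSO GFP+ pair against other groups, or GFP+ against GFP-, are therefore also comparisons between runs of numbers, and group and run cannot be told apart. The labels do not say what these numbers mark. In these sorted bulk samples a change in the mix of cells and a change within cells cannot be told apart either.

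The genes lie on 7 chromosomes of mouse build NCBIM37 (mm9), and all are protein coding. Psen2 (ENSMUSG00000010609, presenilin 2, a catalytic subunit) spans chr1:182157135-182193569 on the minus strand. Ncstn (ENSMUSG00000003458, nicastrin, the subunit with the large outer domain) spans chr1:173996144-174012926 on the minus strand. Psenen (ENSMUSG00000036835, PEN-2, needed for maturation of presenilin) spans chr7:31346887-31348203 on the minus strand, and Aph1a (ENSMUSG00000015750, the scaffold subunit APH-1A) spans chr3:95697892-95702211 on the plus strand. Adam10 (ENSMUSG00000054693) spans chr9:70526804-70628036 on the plus strand and Adam17 (ENSMUSG00000052593) chr12:21329370-21379493 on the minus strand. Rbpj (ENSMUSG00000039191) spans chr5:53947018-54048684 on the plus strand and Maml1 (ENSMUSG00000050567) chr11:50069136-50105838 on the minus strand. Exons of Aph1a share 15.5% of their bases with Car14 on the other strand, those of Ncstn 4.91% with Copa and those of Adam17 1.36% with Iah1. The strand setting of the counting is not given in the sources used here, so reads in these shared stretches could belong to either gene.

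RBPJ can bind DNA at words that hold GTGGGAA, and the start regions of the genes were searched for this word on both strands. Whether any member is a target of the pathway was not tested. RefSeq start windows (GRCm38.p6, 250 bases before to 50 after the start) covered all 8 genes with 11 windows. The word was in 2 of the 11, one of Psen2 and that of Aph1a, beside 6.38% of 32851 windows in the genome. Its shorter core TGGGAA, which every such match also holds, was in 5 of the 11 windows, of Psen2, Psenen, Aph1a and Rbpj, beside 25.6% of all windows. The windows of Rbpj overlap and share a match of this core, so they are not separate finds. The RefSeq starts of Psen2 lie 7138 and 17488 bases inside the outermost start of its Ensembl gene. The window of Hes5, the classical target, holds GTGGGAA 2 times. The windows below were placed on NCBIM37 by exact match, are written 5′ to 3′ along the gene, and have the word or its reverse complement TTCCCAC in capitals. Hes5 is shown as the target to compare with, Psen2 by both of its windows because it was the member called after DAPT, and Aph1a as the other member that holds the word.
Hes5, chr4:154334782-154335081, plus strand: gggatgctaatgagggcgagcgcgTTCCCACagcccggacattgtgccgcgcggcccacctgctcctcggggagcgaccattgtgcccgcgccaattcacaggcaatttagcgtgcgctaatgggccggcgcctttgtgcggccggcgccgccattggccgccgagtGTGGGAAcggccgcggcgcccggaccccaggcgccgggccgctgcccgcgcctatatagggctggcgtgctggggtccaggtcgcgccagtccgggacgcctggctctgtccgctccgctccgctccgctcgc
Psen2, first start, chr1:182186382-182186681, minus strand: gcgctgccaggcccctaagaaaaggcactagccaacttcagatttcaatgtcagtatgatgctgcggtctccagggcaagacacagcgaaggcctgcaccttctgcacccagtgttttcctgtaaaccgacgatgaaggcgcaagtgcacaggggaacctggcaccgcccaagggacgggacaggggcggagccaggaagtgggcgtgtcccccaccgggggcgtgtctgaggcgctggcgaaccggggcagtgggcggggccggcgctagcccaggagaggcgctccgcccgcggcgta
Psen2, second start, chr1:182176032-182176331, minus strand: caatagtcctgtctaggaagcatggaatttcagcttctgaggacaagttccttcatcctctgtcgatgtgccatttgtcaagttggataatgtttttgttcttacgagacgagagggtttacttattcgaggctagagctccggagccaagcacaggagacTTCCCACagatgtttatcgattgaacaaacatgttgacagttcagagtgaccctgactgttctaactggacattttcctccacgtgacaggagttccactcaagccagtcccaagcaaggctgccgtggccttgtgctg
Aph1a, chr3:95697594-95697893, plus strand: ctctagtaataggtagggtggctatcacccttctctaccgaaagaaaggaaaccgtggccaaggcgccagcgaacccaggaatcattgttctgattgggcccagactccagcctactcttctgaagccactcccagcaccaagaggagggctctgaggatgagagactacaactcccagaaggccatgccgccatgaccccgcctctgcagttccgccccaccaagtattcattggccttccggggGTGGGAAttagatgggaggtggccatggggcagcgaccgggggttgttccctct
In Hes5 the matches begin 226 and 83 bases before the start, in the second window of Psen2 89 bases and in Aph1a 4 bases before it. The first window of Psen2 holds no match of GTGGGAA, and neither do those of Ncstn, Psenen, Adam10, Adam17, Rbpj and Maml1. A match is a run of letters and not evidence of binding.

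All 8 genes were read in every library, with Aph1a the lowest (61 to 182 counts in the GFP+ libraries) and Adam10 the highest (2336 to 5050 counts). Per kilobase of exon, the scale on which genes can be compared, P0 DMSO GFP+ cells had the most Psenen at 45.0 ± 4.7 CPM per kilobase (SD, n = 2, as for all levels that follow). Adam10 came next at 31.0 ± 0.80, then Ncstn at 25.7 ± 2.4. Rbpj (9.44 ± 0.77), Maml1 (9.13 ± 0.45), Adam17 (7.25 ± 0.50) and Psen2 (6.69 ± 0.74) formed a lower tier, and Aph1a was last at 2.16 ± 0.34. The replicates of Rbpj and Maml1 overlapped in that order, as did those of Adam17 and Psen2, and those of the other neighbours did not. In P0 DMSO GFP- cells Adam10 led at 42.6 ± 8.3, followed by Ncstn (33.5 ± 4.2) and Psenen (30.3 ± 0.40), and Psen2 was last at 4.92 ± 0.77, below Aph1a at 8.22 ± 0.40. In GFP- cells the replicates of Ncstn and Psenen overlapped, as did those of Adam17 and Rbpj. Aph1a lay below Psen2 in GFP+ cells and above it in GFP- cells, without overlap in either. The plot of CPM by library shows each gene on its own axis.

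**Figure D1:**
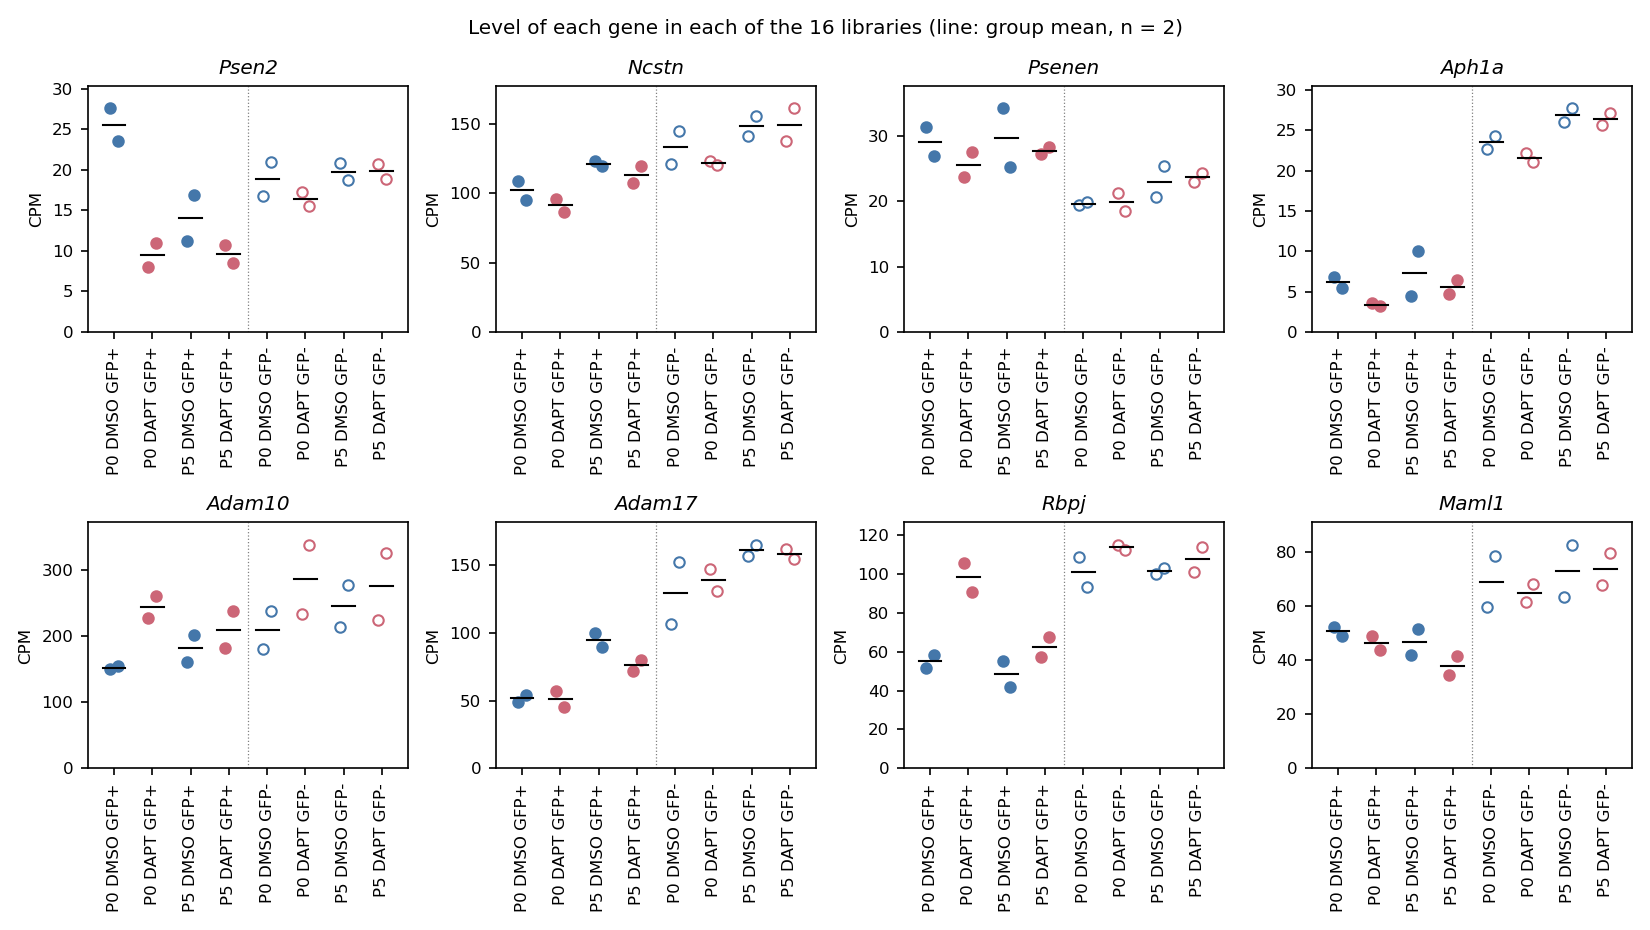
Levels of the 8 genes in the 16 libraries. The y axis is CPM from 0 and the x axis the 8 groups; each circle is a library (blue DMSO, red DAPT, filled GFP+, open GFP-), the line is the mean of 2. Psen2 was highest in P0 DMSO GFP+ cells (27.6 and 23.6 CPM), Rbpj was at 105 and 90.8 CPM in P0 DAPT GFP+ cells, and Aph1a did not exceed 10.03 CPM in the 8 GFP+ libraries.

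Hes5 and Heyl, transcriptional repressors that Notch induces, served as the readout of the drug, and both were lower in each DAPT GFP+ library than in either DMSO GFP+ library of the same age. Hes5 was at 112 and 84.8 CPM in the P0 DMSO GFP+ libraries and at 0.320 and 0.362 CPM with DAPT, a log2 fold change of -8.18 ± 0.28 (SE, adjusted p = 5.296e-07). Heyl went from 252.5 and 240.3 to 5.125 and 17.8 CPM (-4.46 ± 0.44, adjusted p = 1.246e-04). At P5 Hes5 was at 7.64 and 7.16 CPM in DMSO and at 0.390 and 0 CPM with DAPT, and Heyl at 227 and 323 CPM against 69.45 and 76.5. Heyl was lower with DAPT in the GFP- cells too, at 92.1 and 73.4 CPM against 14.0 and 19.0 at P0 and at 65.0 and 97.7 CPM against 7.14 and 13.4 at P5. None of these later differences passed the limits in edgeR's test, in comparisons in which it called no gene. DESeq2's Wald test, run on the same counts, called Hes5 (-5.43 ± 0.94, adjusted p = 1.294e-05) and Heyl (-1.91 ± 0.24, adjusted p = 1.378e-11) as lower in P5 GFP+ cells, and Heyl in the GFP- cells of both ages.

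In P0 GFP+ cells 1 of the 8 genes, Psen2, met the limits the study set (adjusted p below 0.01, fold above 2) in edgeR's quasi-likelihood test, in a comparison in which 8.37% of all 20711 genes tested did. Psen2 was lower with DAPT. Psen2 was at 27.6 and 23.6 CPM in the DMSO libraries and at 8.01 and 11.01 CPM in the DAPT libraries, so the groups did not overlap. Its log2 fold change was -1.465 ± 0.24 (SE, 95% interval -2.01 to -0.92, adjusted p = 0.00272). The call was lost without P0 DMSO GFP+ replicate 1 (-1.31, adjusted p = 0.0132) and without P0 DAPT GFP+ replicate 1 (-1.22, adjusted p = 0.0195). Aph1a was also lower in both DAPT libraries, at 3.52 and 3.15 CPM against 6.87 and 5.50, but its log2 fold change of -0.93 ± 0.38 did not pass (95% interval -1.78 to -0.07, adjusted p = 0.10). Ncstn was at 109 and 95.1 CPM in DMSO and 95.6 and 86.8 CPM in DAPT (-0.20 ± 0.14, 95% interval -0.52 to 0.12), and Psenen at 31.32 and 26.98 against 23.65 and 27.6 CPM (-0.22 ± 0.19, 95% interval -0.65 to 0.20). The replicates of both genes overlapped between agents.

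Of the proteases, Adam10, the enzyme that sheds ligand-bound Notch, was higher with DAPT. It was at 150 and 155.5 CPM in the DMSO libraries and 227 and 261 CPM in the DAPT libraries, without overlap. The log2 fold change of 0.64 ± 0.13 had an adjusted p of 0.00761 and stayed under the limit on the fold. With all groups in 1 fit the adjusted p was 0.0814. Adam17, the closely related sheddase of tumour necrosis factor, was at 49.3 and 54.4 CPM in DMSO and 56.9 and 45.0 CPM in DAPT (-0.06 ± 0.17, 95% interval -0.44 to 0.32).

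Of the nuclear partners, Rbpj was higher with DAPT as well. Its levels were 51.8 and 58.1 CPM in the DMSO and 105 and 90.8 CPM in the DAPT libraries, without overlap. The log2 fold change was 0.80 ± 0.15 (95% interval 0.47 to 1.14, adjusted p = 0.00509), again short of the limit on the fold. Maml1, the co-activator, was at 52.4 and 48.9 CPM in DMSO and 49.1 and 43.7 CPM in DAPT (-0.16 ± 0.15, 95% interval -0.51 to 0.18). With an adjusted p under 0.05 and no limit on the fold, 3 of the 8 passed, Psen2, Rbpj and Adam10, in a comparison in which 27% of all genes did. The median log2 fold change of the 8 was -0.18, against -0.05 over all genes tested.

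The same libraries differed in their makeup. The summed level of 6 hair cell markers was 304 to 425 CPM in P0 DMSO GFP+ and 2269 to 2533 CPM in P0 DAPT GFP+ cells, and 5 of the 6 tested passed as higher. Supporting cell markers were at 5025 to 5331 CPM in DMSO and 2683 to 2778 CPM in DAPT, with 3 of 6 passing as lower. Lfng, whose regulatory sequence drives the GFP that was sorted, was among these (log2 fold change -1.90 ± 0.12, adjusted p = 7.902e-06). The part of these shifts, and of the run, in the values of Psen2, Rbpj and Adam10 was not tested.

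**Figure D2:**
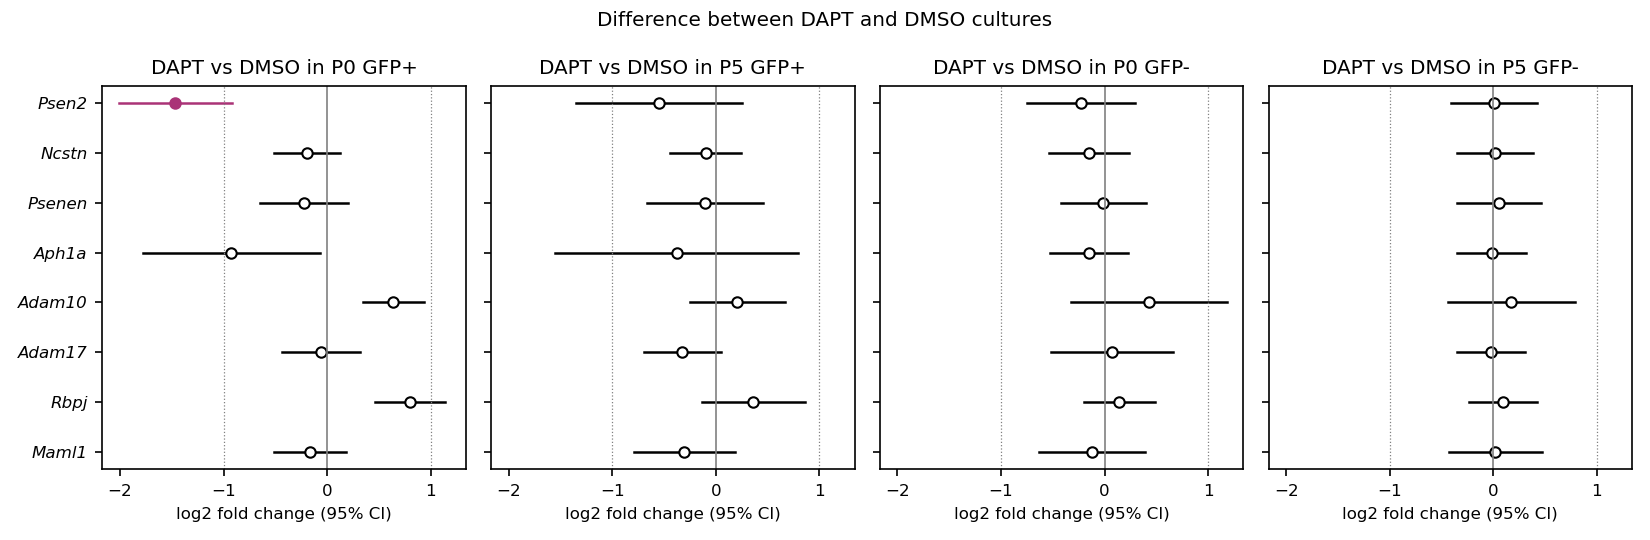
Difference between DAPT and DMSO for each gene, with 1 panel for each age and fraction. Points are log2 fold changes and bars their 95% intervals from edgeR; the filled point passed both limits and the dotted lines mark a fold of 2. Psen2 at P0 GFP+ (-1.465) is the sole filled point, Adam10 (0.64) and Rbpj (0.80) lie to the right of 0 there, and in the GFP- panels every interval crosses 0.

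In P5 GFP+ cells none of the 8 genes passed, and 0% of the 18754 genes tested did in edgeR's test (953 had an unadjusted p under 0.05, none of the 8 among them, and DESeq2's Wald test called 58 genes and 0 of the 8). The P5 libraries of both agents belong to 1 run. Psen2 was at 11.2 and 16.9 CPM in DMSO and 10.7 and 8.545 CPM in DAPT (-0.55 ± 0.33, 95% interval -1.35 to 0.25, adjusted p = 0.98). The groups did not overlap, but the means, 14.0 ± 4.0 and 9.61 ± 1.5 CPM, lay closer than the DMSO replicates. Rbpj was at 55.1 and 41.7 CPM in DMSO and 57.3 and 67.5 CPM in DAPT, also without overlap (0.36 ± 0.20, 95% interval -0.13 to 0.86), and Adam10 at 162 and 202 against 182 and 239 CPM (0.21 ± 0.19, 95% interval -0.25 to 0.67). The other 5 had log2 fold changes from -0.38 (Aph1a) to -0.10 (Ncstn). The intervals of Rbpj and Adam10 include the values found at P0, and that of Psen2 ends at -1.35, short of its -1.465 at P0.

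The difference between the ages in the response was tested as an interaction, in which 1.1% of 22199 genes passed and none of the 8. For Psen2 the response was higher by 0.91 ± 0.41 on the log2 scale at P5, that is, less of a drop (95% interval -0.01 to 1.84, adjusted p = 0.24). For Rbpj it was lower by 0.44 at P5 (-0.44 ± 0.25, adjusted p = 0.35) and for Adam10 likewise (-0.43 ± 0.24, adjusted p = 0.33). The responses at P0 and P5 were thus not shown to differ for any member.

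In GFP- cells the log2 fold changes of the 8 genes between agents ran from -0.23 to 0.43 at P0 and from -0.02 to 0.18 at P5. At P0 0% of 17357 genes passed (614 at an unadjusted p under 0.05, and 27 in DESeq2's Wald test), and at P5 0% of 17286 (342 and 8). None of the 8 had an unadjusted p under 0.05 at either age. Psen2 was at 16.8 and 20.9 CPM in DMSO and 17.2 and 15.5 in DAPT at P0 (-0.23 ± 0.19), and at 20.9 and 18.7 against 20.8 and 18.9 CPM at P5 (0.01 ± 0.16). Rbpj was at 108 and 93.3 against 115 and 112 CPM at P0 (0.14 ± 0.13) and at 99.8 and 103 against 101 and 114 CPM at P5 (0.09 ± 0.13). Adam10 was at 181 and 239 CPM in DMSO and 234 and 339 CPM in DAPT at P0 (0.43 ± 0.28, 95% interval -0.33 to 1.18). Its replicate 2 lay above replicate 1 in every GFP- group and in every GFP+ group. Between libraries of the same number it was higher with DAPT in both pairs at each age, in GFP+ cells as well. In GFP- cells with a replicate block its log2 fold change was 0.41 ± 0.14 at P0 (adjusted p = 0.91) and 0.16 ± 0.08 at P5 (adjusted p = 0.57). The labels do not say that the numbers pair libraries. As a test of the fraction, the response to DAPT at P0 in GFP+ less that in GFP- cells was -1.22 ± 0.33 for Psen2 (95% interval -1.99 to -0.46, adjusted p = 0.10) and 0.67 ± 0.21 for Rbpj (adjusted p = 0.14). In that interaction 0.752% of 23285 genes passed and none of the 8. Psen2, Rbpj and Aph1a had an unadjusted p under 0.05, as did 4421 of the 23285 genes.

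With age the median log2 fold change of the 8 genes in DMSO GFP+ cells was 0.09, against -0.02 over all genes tested. In these DMSO GFP+ cells none of the 8 genes passed between P0 and P5, in a comparison in which 3.32% of 20844 genes did. Of the subunits, Psen2 was the one with lower values at P5, at 11.2 and 16.9 CPM against 27.6 and 23.6 at P0, without overlap, and its log2 fold change of -0.91 ± 0.28 had an unadjusted p of 0.0116 and an adjusted p of 0.071 (95% interval -1.55 to -0.26). Without P5 DMSO GFP+ replicate 2 it was -1.23 with an adjusted p of 0.0141, and without replicate 1 of that group -0.61 with an adjusted p of 0.169. Ncstn was at 123 and 120 CPM against 109 and 95.1 (0.21 ± 0.16), Psenen at 34.2 and 25.2 against 31.32 and 26.98 (-0.02 ± 0.23), and Aph1a at 4.46 and 10.0 against 6.87 and 5.50 (0.19 ± 0.47). The 2 P5 DMSO GFP+ libraries also differed in their summed mesenchymal markers, between 221 and 1259 CPM, and the part of that in the values of Aph1a was not tested. Without P5 DMSO GFP+ replicate 2 the difference of Aph1a turned to -0.50.

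Adam17 went the other way. It was at 49.3 and 54.4 CPM at P0 and 100.1 and 89.9 CPM at P5 in DMSO GFP+ cells, without overlap (0.83 ± 0.16, 95% interval 0.46 to 1.21, adjusted p = 0.0178). It was the 1 member with an adjusted p under 0.05, a limit that 12.2% of all genes met there without regard to the fold, and that Adam17 missed without P0 DMSO GFP+ replicate 1 (adjusted p = 0.110) or replicate 2 (adjusted p = 0.0587). Adam10 (0.21 ± 0.17), Rbpj (-0.22 ± 0.19) and Maml1 (-0.16 ± 0.19) differed by less, with adjusted p from 0.44 to 0.63. The P0 pair of this comparison is the one from its own run. Summed mesenchymal markers were at 138 to 142 CPM in the P0 and 221 to 1259 CPM in the P5 libraries, and Adam17 was higher in GFP- than in GFP+ cells. The part of these markers in its difference was not tested.

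With DAPT both ages of GFP+ cells came from 1 run, and 5.78% of 18776 genes passed, none of the 8. Psen2 was at 8.01 and 11.01 CPM at P0 and 10.7 and 8.545 CPM at P5 (0.03 ± 0.31, 95% interval -0.72 to 0.78). Rbpj was lower at P5, at 57.3 and 67.5 CPM against 105 and 90.8, without overlap (-0.64 ± 0.15, adjusted p = 0.034), and was the 1 member with an adjusted p under 0.05, as were 17.2% of all genes. It missed that limit without P0 DAPT GFP+ replicate 1 (adjusted p = 0.280), replicate 2 (adjusted p = 0.135) or P5 DAPT GFP+ replicate 1 (adjusted p = 0.0518). Adam17 was again higher at P5, at 71.9 and 80.3 against 56.9 and 45.0 CPM (0.60 ± 0.17, adjusted p = 0.054), with mesenchymal markers at 58.6 to 136 CPM at P0 and 308 to 1264 CPM at P5, whose part was not tested. Aph1a was at 4.755 and 6.40 against 3.52 and 3.15 CPM (0.76 ± 0.38, adjusted p = 0.23). Ncstn was higher at P5 without overlap, at 107.5 and 119.5 against 95.6 and 86.8 CPM (0.33 ± 0.13, adjusted p = 0.14). Maml1 was lower without overlap, at 34.4 and 41.5 against 49.1 and 43.7 CPM (-0.27 ± 0.17, adjusted p = 0.32). Psenen (0.13 ± 0.19) and Adam10 (-0.20 ± 0.16) overlapped between ages. Hair cell markers stood at 527 to 532 CPM at P5 and 2269 to 2533 CPM at P0 in these libraries, and their part in the value of Rbpj was not tested.

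In GFP- cells none of the 8 genes passed between ages. This held in DMSO, where 0% of 17423 genes did (135 at an unadjusted p under 0.05, none of the 8 among them, and 1 in DESeq2's Wald test), or in DAPT, where 0.354% of 17528 did. In that last comparison 62 genes were called, against 1200 with a replicate block and 1306 in DESeq2's Wald test, and still none of the 8. The log2 fold changes ran from -0.04 (Rbpj) to 0.27 (Adam17) in DMSO and from -0.07 (Rbpj) to 0.30 (Ncstn) in DAPT. The change with age in GFP+ less that in GFP- cells in DMSO was -0.96 ± 0.38 for Psen2 (95% interval -1.84 to -0.09, adjusted p = 0.41) and 0.54 ± 0.30 for Adam17 (adjusted p = 0.56), and none of the 8 was among the 0.0344% of 23257 genes that passed.

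**Figure D3:**
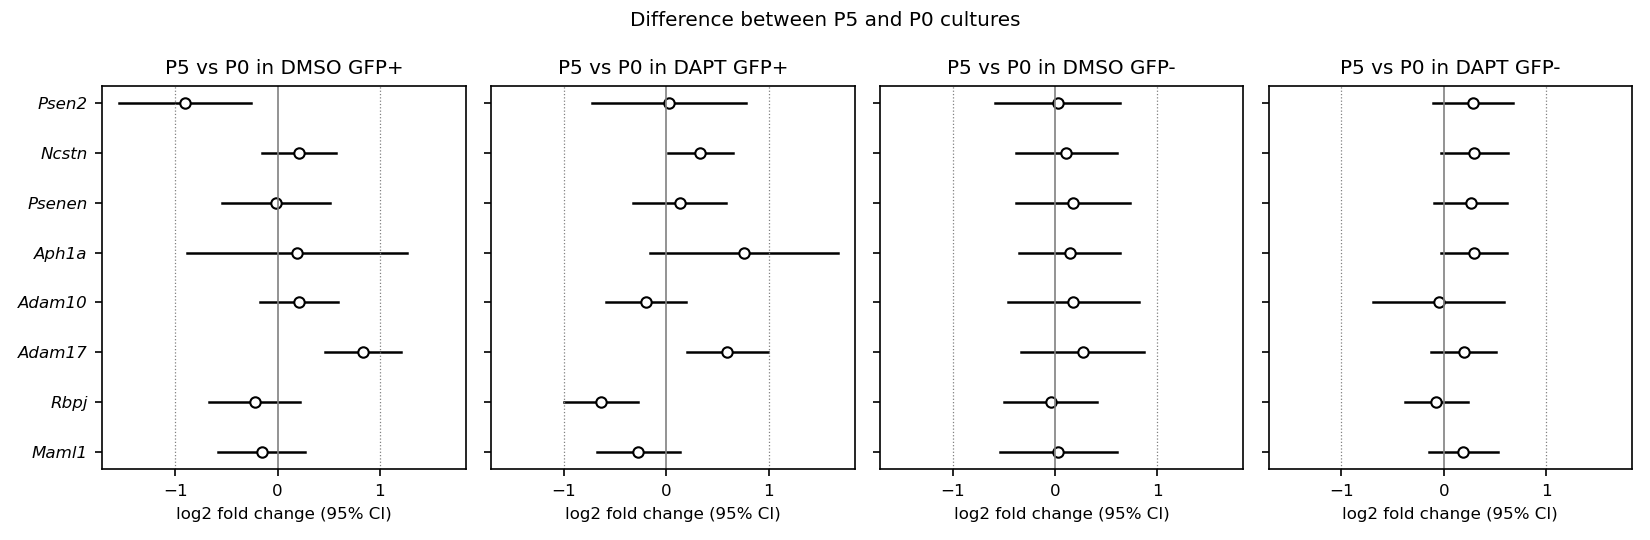
Difference between P5 and P0 for each gene, with 1 panel for each agent and fraction. Points are log2 fold changes and bars their 95% intervals from edgeR; open points did not pass the limits and the dotted lines mark a fold of 2. No point is filled; Adam17 lies at 0.83 and 0.60 in the GFP+ panels, and Psen2 at -0.91 in DMSO and 0.03 in DAPT.

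The largest log2 fold changes of the 8 genes were those of Aph1a between fractions in DMSO, -1.815 at P0 and -1.75 at P5. Next came Psen2 with DAPT in P0 GFP+ cells, at -1.465. With the sign dropped, the median gene of all those tested differed between fractions by 1.464 at P0 and 1.211 at P5. Of the 8, Aph1a alone lay above these values. The signed medians were -0.34 for the 8 and 0.18 for all genes at P0, and -0.43 and -0.03 at P5. In P0 DMSO cultures Aph1a and Adam17 were lower in GFP+ than in GFP- cells, 2 of the 8 genes, in a comparison in which 40.9% of 21779 genes passed. Aph1a was at 6.87 and 5.50 CPM in GFP+ and 22.7 and 24.3 CPM in GFP- cells (-1.815 ± 0.30, 95% interval -2.54 to -1.09, adjusted p = 0.00339). Adam17 was at 49.3 and 54.4 CPM against 107 and 152 (-1.21 ± 0.23, 95% interval -1.76 to -0.66, adjusted p = 0.00503). Without P0 DMSO GFP+ replicate 1 or replicate 2 neither gene passed, with adjusted p of 0.0365 and 0.0430 for Aph1a and 0.0624 and 0.0535 for Adam17, and the count over all genes then fell from 8917 to 0. Without P0 DMSO GFP- replicate 2 the log2 fold change of Adam17 was -0.98 and its adjusted p 0.001405, just under the limit on the fold.

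Rbpj was lower too in GFP+ cells, at 51.8 and 58.1 CPM against 108 and 93.3 (-0.77 ± 0.18, adjusted p = 0.0128). Psenen, in contrast, was higher, at 31.32 and 26.98 against 19.5 and 19.8 CPM (0.68 ± 0.22, adjusted p = 0.0378), and Psen2 was at 27.6 and 23.6 against 16.8 and 20.9 CPM (0.55 ± 0.25, adjusted p = 0.098). These 4 genes, Aph1a, Adam17, Rbpj and Psenen, had an adjusted p under 0.05, as did 60.4% of all genes. Psenen missed that limit with no filter (adjusted p = 0.114), with a replicate block (0.0667) and without any 1 of the 4 libraries (0.0609 to 0.237), and Rbpj missed it without either P0 DMSO GFP+ library (0.109 and 0.0786). Ncstn (-0.27 ± 0.19), Adam10 (-0.35 ± 0.21) and Maml1 (-0.33 ± 0.20) did not.

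At P5 the pattern was alike in direction for Aph1a, Adam17, Rbpj and Psenen, yet none of the 8 passed both limits, and 33.9% of 19008 genes did. Aph1a was at 4.46 and 10.0 CPM in GFP+ and 26.0 and 27.7 CPM in GFP- cells (-1.75 ± 0.41, adjusted p = 0.0126), without overlap. Its replicates in GFP+ cells lay far apart, and it passed without either of them, at -1.32 (adjusted p = 0.00412) and -2.46 (adjusted p = 1.688e-04). Rbpj was at 55.1 and 41.7 against 99.8 and 103 CPM (-0.93 ± 0.20, adjusted p = 0.01001) and Adam17 at 100.1 and 89.9 against 157 and 165 CPM (-0.63 ± 0.17, adjusted p = 0.0227). These 3 had an adjusted p under 0.05, as did 57.3% of all genes, and Adam17 missed it without P5 DMSO GFP+ replicate 2 (0.0960) or either GFP- library (0.0588 and 0.0822). Psenen was at 34.2 and 25.2 against 20.6 and 25.4 CPM (0.51 ± 0.25, adjusted p = 0.12). Psen2 lay on the other side of 0 from P0 (-0.36 ± 0.29, adjusted p = 0.32). The part of the read composition and of the run in these differences was not tested, and with size factors of DESeq2 in place of TMM the median of all genes moved up by 0.13 (log2) in the P0 comparison and by 0.11 in the P5 one, each of the 8 kept its direction, and Adam17 at P5 had an adjusted p of 0.0531.

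**Figure D4:**
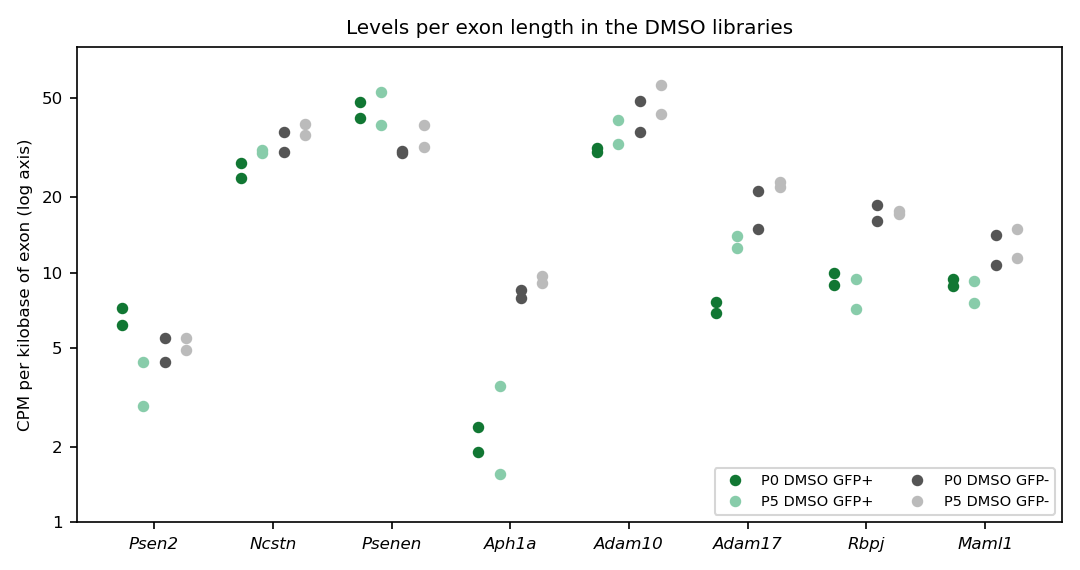
Level per kilobase of exon in the DMSO libraries, on a log axis, with each point a library. Aph1a lies lower in both GFP+ groups (2.16 and 2.53 CPM per kilobase on average) than in GFP- (8.22 and 9.38), and Psenen higher at P0 (45.0 against 30.3).

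The other parts of the pathway give a scale for these values. Among the other γ-secretase genes, Aph1b and Aph1c, paralogues of Aph1a, were not called by drug or age. They are close to each other in sequence, and reads with several alignments were counted for no gene, so both could be undercounted. Aph1b was the member of the APH-1 family that GFP+ cells had most of. In P0 DMSO cultures it was at 53.5 and 43.5 CPM in GFP+ and 27.4 and 23.1 CPM in GFP- cells and was called as higher (1.05 ± 0.22, adjusted p = 0.00720), the opposite of Aph1a. Per kilobase it stood at 9.39 in P0 DMSO GFP+ cells against 2.16 for Aph1a, and at 4.89 in GFP- cells against 8.22. With DAPT it was at 71.0 and 64.3 CPM in P0 GFP+ cells (0.44 ± 0.16, adjusted p = 0.071). Aph1c stayed between 2.64 and 9.41 CPM in all 16 libraries.

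Of 13 other genes of the nuclear complex, co-activators and co-repressors that act with RBPJ, none was called after DAPT in P0 GFP+ cells. In that comparison 8.37% of all genes passed. The median log2 fold change of the 13 was 0.05. Receptors, ligands and targets did move there. Of 4 receptors Notch1 (-1.42 ± 0.15) and Notch3 (-2.15 ± 0.15) fell and none rose. Of 5 ligands Dll1 (4.08 ± 0.24), Dll3 (5.385 ± 0.26) and Jag2 (5.01 ± 0.36) rose and Jag1 (-1.76 ± 0.15) fell. Of 17 modifiers Mfng (3.70 ± 0.38), Neurl1a (3.40 ± 0.27) and Neurl1b (3.03 ± 0.41) rose, and Lfng and 1 other fell. Of 7 genes listed as targets 6 fell, Hes5, Heyl, and Nrarp (-4.37 ± 0.25) the most. The other, Hes6, rose (4.22 ± 0.28), and whether Notch induces it in these cells was not tested. In P5 GFP+ cells and in GFP- cells of both ages edgeR's test called 0 of the 49 genes in these lists after DAPT, with 14 of them at an unadjusted p under 0.05 in P5 GFP+ cells and 8 in the GFP- cells of each age. DESeq2's Wald test called 5 in P5 GFP+ cells, Hes5, Heyl, Nrarp (-1.94 ± 0.39), Lfng (-1.32 ± 0.23) and Notch3 (-1.21 ± 0.27), all lower, 3 in P0 GFP- cells, Heyl, Hey1 and Hes1, and 1, Heyl, in P5 GFP- cells. Between ages in DMSO GFP+ cells 3.32% of all genes passed. Called there were 3 of the 7 listed targets, Hes5 (-3.77 ± 0.22), Nrarp (-1.64 ± 0.23) and Hey1 (-1.47 ± 0.20), all lower at P5. None of the receptors, ligands, modifiers or nuclear genes was called. Between ages with DAPT 5.78% of all genes passed in GFP+ cells. Dll1 (-3.31 ± 0.32), Jag2 (-3.91 ± 0.48), Mfng (-3.02 ± 0.48), Neurl1a (-2.93 ± 0.21) and Hes6 (-3.93 ± 0.50) were lower there at P5. Hey2 (1.097 ± 0.17) and the acetyltransferase gene Kat2b (1.94 ± 0.23) were higher. Between fractions in P0 DMSO cultures 40.9% of all genes passed. Of the 13 nuclear genes there, Crebbp (2.01 ± 0.24) and Ep300 (1.02 ± 0.22), the acetyltransferases recruited by Mastermind, were called as higher in GFP+ cells, and 1 as lower. Of the receptors there, Notch1 (1.86 ± 0.23) was higher and Notch2 (-2.15 ± 0.26) and Notch4 (-3.07 ± 0.33) lower in GFP+ cells. In the interactions Hey1 was called for age by DAPT (2.15 ± 0.29), where 1.1% of all genes passed. Notch3 (-2.06 ± 0.24), Jag2 (5.01 ± 0.53) and Hes6 (3.90 ± 0.41) were called for fraction by DAPT, where 0.752% did.

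Over the 16 libraries the 8 genes did not follow a single pattern. Pearson's r of log2(CPM + 1) between pairs of them ran from -0.71 (Psenen and Aph1a) to 0.91 (Ncstn and Adam17). Psenen had a negative r with each of the other 7 genes over these libraries, which mix both fractions. Within GFP- libraries alone its r ran from 0.02 (Rbpj) to 0.84 (Aph1a), and within GFP+ libraries from -0.52 (Adam10) to 0.43 (Ncstn). Among GFP+ libraries alone, 8 in number, r of all pairs ran from -0.83 (Aph1a with Rbpj) to 0.87 (Ncstn with Adam17). It was 0.64 for Adam10 with Rbpj and -0.72 for Psen2 with Adam10. The points share fractions, runs and depth, so these values describe the libraries only. Among 10628 genes with a mean of at least 10 CPM, the one most like Psen2 was Slc27a3 (r = 0.900), like Ncstn Kdelr2 (0.969), like Aph1a Flot2 (0.994), like Psenen the pseudogene Gm12396 (0.941), like Adam10 Pum2 (0.879), like Adam17 Dbp (0.983), like Rbpj Ssbp3 (0.972) and like Maml1 Dnaja2 (0.971).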

How the data were processed

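Sorted cells were measured by paired-end RNA-seq with an Illumina TruSeq kit. The study's supplement describes a first amplification of the cDNA with a NuGen Ovation kit for the cultured samples. The labels and the study's methods state it for small cell numbers. Levels may carry the bias of that step, and whether it was alike in GFP+ and GFP- libraries was not tested. The authors aligned reads with TopHat to mm9 and the deposited values are raw counts per Ensembl gene, one table per library, with HTSeq and DESeq 1.9.2 also named in the submitters' processing notes (TopHat 1.4.0 there). The annotation version and strand setting are not given in the sources used here. Rows for reads in no counted feature, ambiguous or with several alignments were left out. Positions, exon lengths and overlaps came from the GENCODE annotation of NCBIM37, and 34391 of 36536 identifiers had a symbol.

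Each comparison was fitted across all genes with edgeR 4.0.16 (filterByExpr with a minimum count of 10 and a total of 15, TMM, glmQLFit, glmQLFTest, two-sided) on its own 4 libraries, or 8 for an interaction, with no block, in R 4.3.3. Adjusted p are Benjamini-Hochberg values over all genes tested, and called genes had adjusted p below 0.01 and a fold above 2, the study's limits for cultures. Intervals are 95%. CPM use TMM over 16 libraries, and a log2 level adds 1. Alternatives were DESeq2 1.42.0, its size factors, no filter, all groups in 1 fit, a replicate block, other limits, no mitochondrial genes and each library left out. DESeq2 over the pathway lists was added after seeing the data. The code of the fit was checked on simulated counts with a single dispersion for all genes and no differences between runs. That check does not measure error rates in these libraries. Replicates of every group differed by more than sampling noise (r of log2 levels 0.9484 to 0.9912).

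The genes, the lists and the tests were chosen with earlier results of these data known. The 8 genes were covered in every comparison, some of them only by a range, a figure or the count of genes that passed. Also named were Hes5 and Heyl, and at most 4 genes of each pathway list (the largest changes among those called). For each of the 8 the gene with the highest r was named as well. The Aph1 paralogues were named outside that rule. Some genes of the lists are not reported here.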

Additional observations from a re-analysis of the deposited data

How the results depend on the processing

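Of the 13 comparisons, 8 gave no called gene among the 8 under any alternative run. In P0 GFP+ cells DAPT gave 1 called gene, 3 with an adjusted p under 0.05 and no limit on the fold, and 0 to 1 with a library left out. Between P5 and P0 the count was 0 in DMSO GFP+ and DAPT GFP+ cells, and 1 in each with that wider limit. Between fractions at P0 the count was 2, 4 with the wider limit and 0 to 2 with a library left out. At P5 it was 0, against 1 with an adjusted p under 0.05 and a fold over 2, 3 with no limit on the fold, 1 in DESeq2's Wald test, 1 without mitochondrial genes, 2 with no filter, 2 with all groups in 1 fit and 0 to 2 with a library left out. The cause of these moves was not tested; the wider limits call more genes by construction. Of 1352 values of the 8 genes under alternatives, 75 changed sign, none of them called in either fit. Leaving out mitochondrial genes raised the median of the group levels from 58.7 to 71.3 CPM, since it lowers the total.

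With the replicate number as a replicate block the count of called members was 1 between fractions at P5 (Aph1a, adjusted p = 0.00887) and unchanged in every other comparison. Over all genes the block moved the count between ages in DAPT GFP- cells from 62 to 1200, in DAPT GFP+ cells from 1085 to 1761 and in DMSO GFP+ cells from 691 to 1050. The labels do not say that the numbers pair libraries. Deviations of libraries with the same number had r from 0.119 to 0.744 among GFP- groups and from -0.319 to 0.218 among GFP+ groups. With the numbers crossed for DAPT at P5 GFP+, an alternative added after seeing the data, 0 genes were called, as before.

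Counts over all genes moved more. With a library left out they ran from 0 to 549 for DAPT in P0 GFP- cells (main count 0), from 0 to 492 between ages in DMSO GFP- cells (0), from 33 to 2180 between ages in DAPT GFP+ cells (1085), from 471 to 1513 in DMSO GFP+ cells (691), from 54 to 726 in DAPT GFP- cells (62, and 1306 in DESeq2's Wald test), from 2136 to 7921 between fractions at P5 (6450) and from 0 to 9170 at P0 (8917). Under the other settings DAPT in P0 GFP+ cells ranged from 1089 to 5602 (1733), and the 3 interactions from 194 to 906 (245), 7 to 301 (8) and 170 to 1044 (175). Aph1a had the fewest reads, 61 to 182 counts in GFP+ libraries, and an SE of 0.38 for DAPT at P0, against 0.13 for Adam10 with 2336 to 5050 counts; how much of that is depth was not tested.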
